A study of Mus musculus with 36 samples.

Results

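The genes described here are the 31 members of a sterol and fatty acid synthesis module, found by name among the 54232 gene identifiers of the count tables. They are enzymes that build cholesterol and fatty acids, together with the proteins that sense sterols and control those enzymes. All 31 members passed the filter on low counts and were among the 12957 genes tested. RNA was sequenced from mouse bone-marrow-derived macrophages (BMDM), cells grown from bone marrow for 5 days with 20 ng/mL M-CSF, the growth factor that drives macrophage development. The cultures were labelled WT, for which the design text gives the strain as C65BL6, or NOS1 KO, a knockout of the neuronal nitric oxide synthase gene. Each genotype label comes with a control group, a group given 100 ng/mL of lipopolysaccharide (LPS, a bacterial cell wall component sensed by macrophages) for 2 h, and a group given the same dose for 8 h. Each of the 6 groups holds 6 libraries, 36 in all. The series title names SOCS1, whereas the labels and the design text name only NOS1. The labels give no age, sex, animal, culture or pairing, and no description of the knockout allele. Nothing states that libraries of 1 group had different animals as sources. The p-values thus weigh a spread among libraries that could be technical, at least in part. Counts of the gene Xist, given below, set the WT-labelled libraries numbered 1 apart from the rest of their groups. The libraries of those groups therefore did not all have the same source.

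Cholesterol is built from acetyl-CoA through mevalonate, the isoprenoids, squalene and lanosterol. The membrane-bound transcription factor SREBP2, encoded by Srebf2, activates most genes of this route. When sterols are low, the escort protein SCAP carries SREBP2 from the endoplasmic reticulum to the Golgi, where it is cut and released. When sterols are high, INSIG proteins hold SCAP back. Fatty acids are built from acetyl-CoA by ATP citrate lyase, acetyl-CoA carboxylase and fatty acid synthase, then lengthened by elongases and given double bonds by desaturases. Macrophages draw on both routes for membranes, for lipid droplets and for the precursors of signalling lipids.

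The libraries were examined before the members. Library totals ran from 8953489 to 18482551 counts. Nos1 went against its label: it stood at 4.16 ± 1.04 CPM (counts scaled to library size; SD, n = 6) in the KO-labelled controls and 0.0650 ± 0.0988 CPM (SD, n = 6) in the WT-labelled controls. At 2 h the KO-labelled and WT-labelled groups held 3.49 and 0.0857 CPM of Nos1, and at 8 h 1.63 and 0.158 CPM. The groups are therefore called KO-labelled and WT-labelled throughout. The LPS labels matched the inflammatory genes, since Tnf went from 27.2 ± 5.34 to 2537 ± 89.6 CPM at 2 h in the WT-labelled libraries (SD, n = 6). Within every group the libraries fell into 2 sets of 3 that the labels do not name. The sets were drawn from the first principal component of the counts after group means were removed, which held 34.6% of the variance. Set A holds the libraries numbered 1, 2 and 6 in each group and set B those numbered 3, 4 and 5, numbers that follow accession order and are not given by the labels. With the 89 tested genes of the module and its related lists left out, 36 of 36 libraries fell into the same set. Results are given below over all libraries and within each set.

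Other features also differed between libraries. The summed level of 8 neutrophil and myeloid precursor markers was 16.0 to 26.2 CPM in set A and 105 to 109 CPM in set B of the WT-labelled controls, and 33.9 to 38.2 and 58.9 to 68.7 CPM in the KO-labelled controls. The sum of 8 skeletal muscle transcripts exceeded 100 CPM in 4 WT-labelled libraries. These were the 8 h libraries numbered 5 (4079 CPM, set B) and 6 (110 CPM, set A) and the 2 h libraries numbered 5 (195 CPM, set B) and 6 (500 CPM, set A). Xist was counted at 4924 to 6526 reads in the 3 WT-labelled libraries numbered 1 (set A) and at 1 read or fewer in all others. The libraries numbered 6 have genotype labels that start with BMDM. The sum of 8 macrophage markers was 12569 to 22430 CPM, and 5 T and NK cell markers reached at most 0.225 CPM. In bulk RNA, fewer cells of a type and less RNA per cell cannot be told apart.

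The promoters of 24 members were found in the RefSeq table of the GRCm38.p6 build, as windows of 300 bases from 250 before to 50 after the gene start. 4 are shown, for the mevalonate enzyme and the sterol sensor with the largest called rises under LPS, for the fatty acid synthase gene, and for the elongase gene with the largest fall. They lie at chr13:119690101-119690400 on the plus strand (Hmgcs1), chr5:28071162-28071461 on the plus strand (Insig1), chr11:120824498-120824797 on the minus strand (Fasn) and chr3:129532136-129532435 on the plus strand (Elovl6). Each is written 5′ to 3′ along its gene. Capitals mark the core of the sterol regulatory element, CACNCCAC, and the NF-Y box, CCAAT, on either strand.
Hmgcs1: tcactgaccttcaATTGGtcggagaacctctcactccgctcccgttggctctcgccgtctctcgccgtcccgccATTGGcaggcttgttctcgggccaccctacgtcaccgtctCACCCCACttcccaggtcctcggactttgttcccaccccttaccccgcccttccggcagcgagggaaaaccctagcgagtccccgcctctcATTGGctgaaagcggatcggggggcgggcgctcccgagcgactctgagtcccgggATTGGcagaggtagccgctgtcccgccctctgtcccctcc
Insig1: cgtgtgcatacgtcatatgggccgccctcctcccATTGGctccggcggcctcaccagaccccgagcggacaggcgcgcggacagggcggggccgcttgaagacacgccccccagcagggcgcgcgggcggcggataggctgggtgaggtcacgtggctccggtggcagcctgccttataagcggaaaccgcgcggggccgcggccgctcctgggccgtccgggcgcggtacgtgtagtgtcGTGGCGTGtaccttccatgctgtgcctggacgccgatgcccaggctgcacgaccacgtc
Fasn: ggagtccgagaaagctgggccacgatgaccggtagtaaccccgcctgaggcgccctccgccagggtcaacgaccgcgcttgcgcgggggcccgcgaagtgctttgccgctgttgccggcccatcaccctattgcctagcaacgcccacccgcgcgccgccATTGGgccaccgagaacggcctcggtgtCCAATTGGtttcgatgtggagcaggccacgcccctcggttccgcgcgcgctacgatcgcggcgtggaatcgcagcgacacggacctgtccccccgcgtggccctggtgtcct
Elovl6: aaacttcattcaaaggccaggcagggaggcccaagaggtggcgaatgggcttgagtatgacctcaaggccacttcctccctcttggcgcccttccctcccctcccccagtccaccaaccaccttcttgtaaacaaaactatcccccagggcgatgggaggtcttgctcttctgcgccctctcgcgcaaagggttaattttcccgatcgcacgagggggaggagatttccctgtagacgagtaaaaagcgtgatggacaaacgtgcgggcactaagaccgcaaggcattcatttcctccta

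The core of the sterol regulatory element, the sequence that SREBP proteins bind, begins 136 bases before the start of Hmgcs1 and 9 bases before that of Insig1, counted from the RefSeq starts of these windows, which differ from the gene starts of the count annotation given further on. It was found in 3 of the 24 member promoters (12.5%), the third being Acat2, and in 7.12% of the 27025 genes with a promoter in the table. The longer form TCACNCCAC, which contains the core, was in 1 member (4.2%) and in 1.44% of genes. The NF-Y box was in 19 members (79.2%) against 41.06% of genes. A GC box, GGGCGG, was in 20 members (83.3%) against 38.2% of genes. The Fasn window held 3 NF-Y boxes, of which 1 pair overlaps, and no sterol element core, and the Elovl6 window held none of these motifs. A match is a description of the letters in the window, not of binding.

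In WT-labelled control macrophages the members spanned a wide range of levels, compared here per kilobase of exon. Scd2, a stearoyl-CoA desaturase, was highest at 47.1 ± 33.8 CPM per kb, followed by Insig1 at 40.9 ± 18.0, the ATP citrate lyase gene Acly at 34.3 ± 5.99 and Srebf2 at 24.2 ± 5.19 (SD, n = 6). Scd2, Insig1 and Acly did not differ beyond their spread, while Acly and Srebf2 differed by more than either SD. Elovl6, which lengthens palmitate, stood at 1.98 ± 0.896, the acetyl-CoA carboxylase gene Acaca at 1.45 ± 0.499 and the farnesyl diphosphate synthase gene Fdps at 0.964 ± 0.527 CPM per kb, the 3 lowest. Fdps shares 26.7% of its exon bases with another annotated gene and may lose reads there, so its rank as lowest is uncertain. Much of the spread followed the library sets. Scd2 was counted at 39.0, 81.7 and 166 CPM in set A, and set B averaged 419 ± 51.1 CPM (SD, n = 3), with 463 and 432 CPM in its upper libraries. Scd1, its close relative, was at 1.05, 1.02 and 4.44 CPM in set A and 35.0, 35.0 and 28.2 CPM in set B. The 2 sets, which were drawn from these same counts, did not overlap for 28 of the 31 members in the WT-labelled controls and for 17 in the KO-labelled controls, where 41.5% and 45.9% of all tested genes did not overlap.

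**Figure D1:**
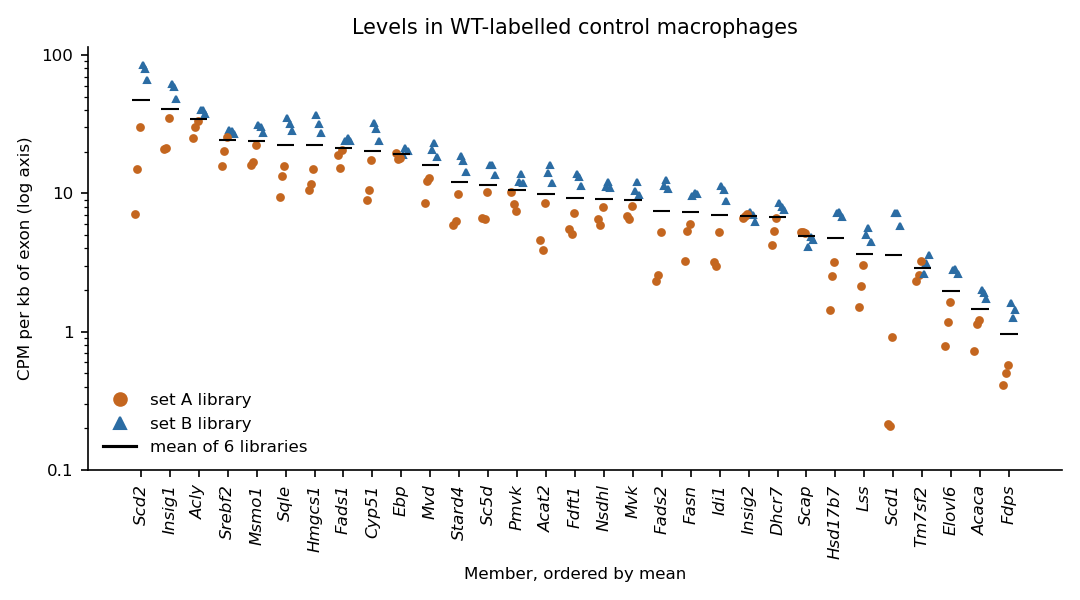
Levels of the 31 members in the 6 WT-labelled control libraries, in CPM per kb of exon on a log axis, ordered by mean. Circles are set A libraries, triangles set B libraries and bars the mean of 6; Scd2 is highest at 47.1 and Fdps lowest at 0.964 CPM per kb, and for most members the triangles lie above the circles.

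Most members had no called change after 2 h of LPS, and at 8 h 15 of the 31 were called in each genotype label. At 8 h, 4 of the 5 genes that lengthen and desaturate fatty acids fell, by up to 11.0-fold. Of all genes 37.0% (WT-labelled) and 37.2% (KO-labelled) fell. Of the 7 mevalonate genes 2 rose, by up to 2.32-fold, no larger a share than the 34.2% and 34.9% of all genes that rose. A gene is called here when edgeR's quasi-likelihood test gave a Benjamini-Hochberg adjusted p below 0.05 over all 12957 genes. At 2 h, 3 members were called higher and 3 lower in the WT-labelled libraries, where 20.3% and 17.7% of all genes were called, with a median log2 fold change of -0.05 over members and -0.02 over all genes. In the KO-labelled libraries 4 rose and 1 fell at 2 h, against 18.9% and 16.4% of all genes. At 8 h, 6 members rose and 9 fell in the WT-labelled libraries, against 34.2% and 37.0% of all genes, and 6 rose and 9 fell in the KO-labelled libraries, against 34.9% and 37.2%. Between 2 h and 8 h, 1 member rose and 11 fell in the WT-labelled libraries (30.0% and 32.8% of all genes), and 2 rose and 10 fell in the KO-labelled libraries (31.5% and 33.7%). The count of falls at 2 h became 0 in the WT-labelled libraries without the 2 h library numbered 2 or the control numbered 3, 4 or 5, and in the KO-labelled libraries without the control numbered 1 or 6 or the 2 h library numbered 3, 4 or 5. The counts of rises from 2 h to 8 h ran from 0 to 2 (WT-labelled) and 0 to 5 (KO-labelled) when 1 library was left out. At 8 h the members were called no more often than all genes in either direction. All these comparisons within a genotype label share their control or 2 h libraries.

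**Figure D2:**
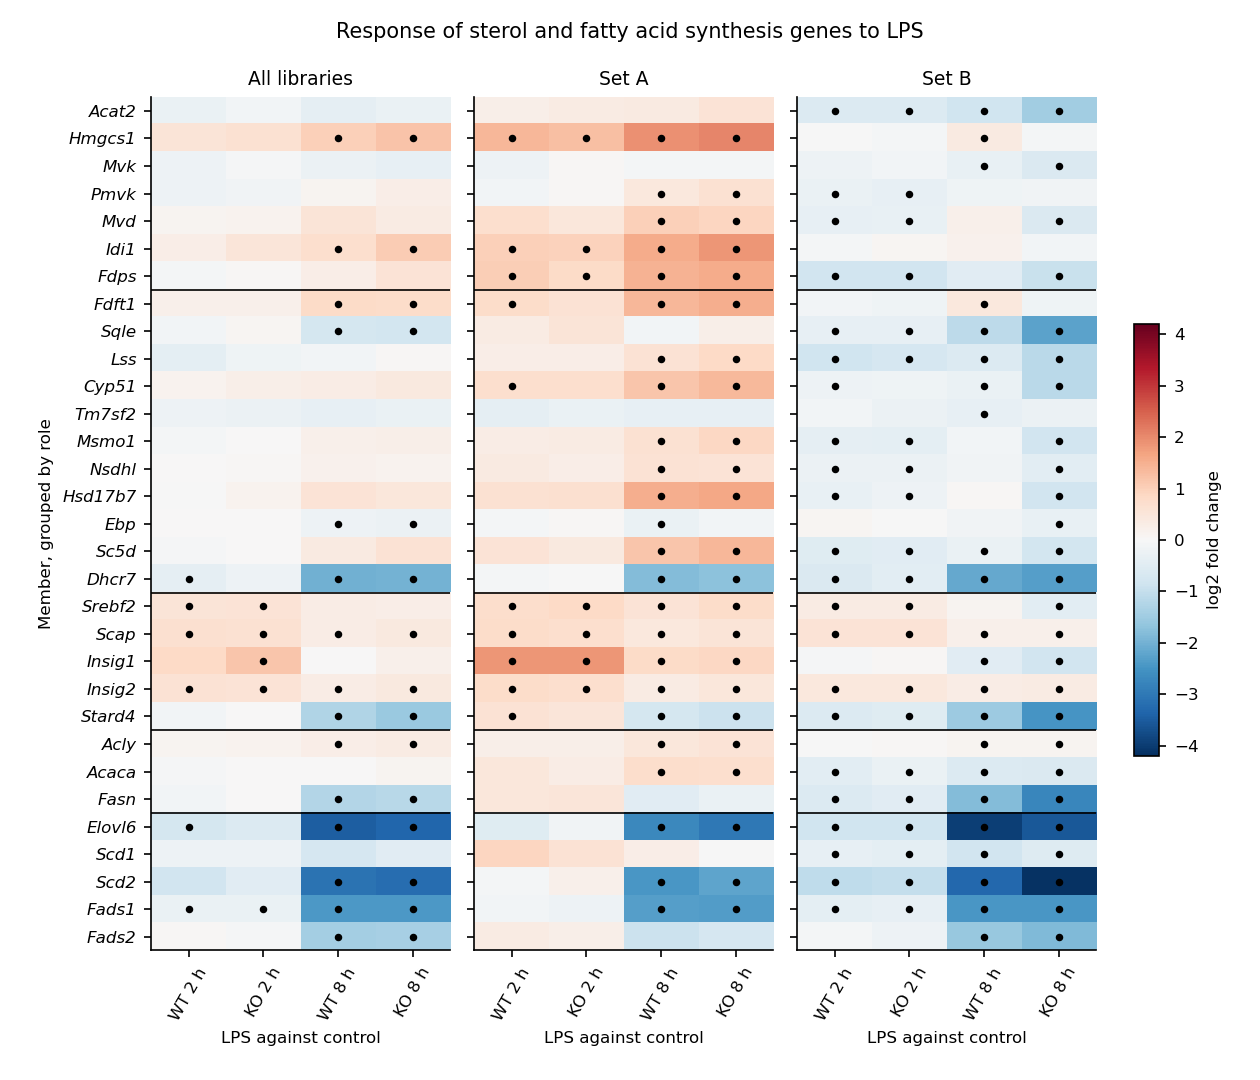
Log2 fold change of each member, grouped by role, after 2 h and 8 h of LPS against control, in WT-labelled and KO-labelled libraries, over all libraries and within each library set; red is higher and blue lower, and dots mark called changes. The elongation and desaturation genes Elovl6, Scd2 and Fads1 are blue at 8 h in every column, whereas the sterol genes such as Hmgcs1 and Idi1 are red in set A and paler or blue in set B.

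Among the 5 genes of elongation and desaturation, 4 fell at 8 h in each genotype label, with a median log2 fold change of -2.41 in both. Of all genes, 37.0% fell in the WT-labelled and 37.2% in the KO-labelled libraries. Elovl6 (chromosome 3, 129532355 to 129638495, mm10) ranged from 5.04 through a median of 13.7 to 18.3 CPM in the WT-labelled controls, from 3.49 through 7.88 to 10.2 CPM at 2 h, and from 0.590 through 1.23 to 1.58 CPM at 8 h. Every 8 h library was below every control library. Its log2 fold change at 8 h was -3.46 ± 0.33 (SE), a fall of 11.0-fold (adjusted p = 2.04e-11), after -0.73 ± 0.27 at 2 h (adjusted p = 0.0286). The call at 2 h was lost in 6 of 12 fits that left out 1 library, in set A alone and without a count filter. It was also lost without the BMDM-labelled libraries and when only the compared groups were fitted. In the KO-labelled libraries it went from a median of 10.6 to 1.06 CPM at 8 h, a log2 fold change of -3.33 ± 0.33.

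Scd2 (chromosome 19, 44293674 to 44306864) places the first double bond in saturated fatty acids. It ranged from 39.0 through 264 to 463 CPM in the WT-labelled controls and from 10.3 through 33.4 to 44.7 CPM at 8 h. The groups overlapped only at the control library with 39.0 CPM. The log2 fold change was -3.10 ± 0.48, a fall of 8.58-fold (adjusted p = 6.54e-07), and -3.21 ± 0.48 in the KO-labelled libraries. At 2 h it was not called, at -0.82 ± 0.44 (adjusted p = 0.146). Scd1 was not called at 8 h, at -0.70 ± 0.78 (adjusted p = 0.433), with WT-labelled control libraries spread from 1.02 to 35.0 CPM.

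Fads1 and Fads2 encode the delta-5 and delta-6 desaturases that make arachidonic acid and other long polyunsaturated fatty acids. Fads1 (chromosome 19, 10182888 to 10196877) stood at 73.4 through 107 to 121 CPM in the WT-labelled controls, 66.2 through 86.5 to 92.5 CPM at 2 h and 16.6 through 19.1 to 22.2 CPM at 8 h. No 8 h library overlapped an earlier one. Its log2 fold change at 8 h was -2.41 ± 0.11 in each genotype label (adjusted p = 5.00e-20 in the WT-labelled and 5.10e-20 in the KO-labelled libraries). At 2 h it was -0.28 ± 0.10 in the WT-labelled libraries (adjusted p = 0.0238). That call was lost in 4 of 12 fits that left out 1 library, in set A alone and without a count filter. It was also lost without the BMDM-labelled libraries and when only the compared groups were fitted. Fads2 (chromosome 19, 10062765 to 10101746) went from a median of 26.2 to 9.48 CPM at 8 h, with a log2 fold change of -1.42 ± 0.39 (adjusted p = 0.00169).

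**Figure D3:**
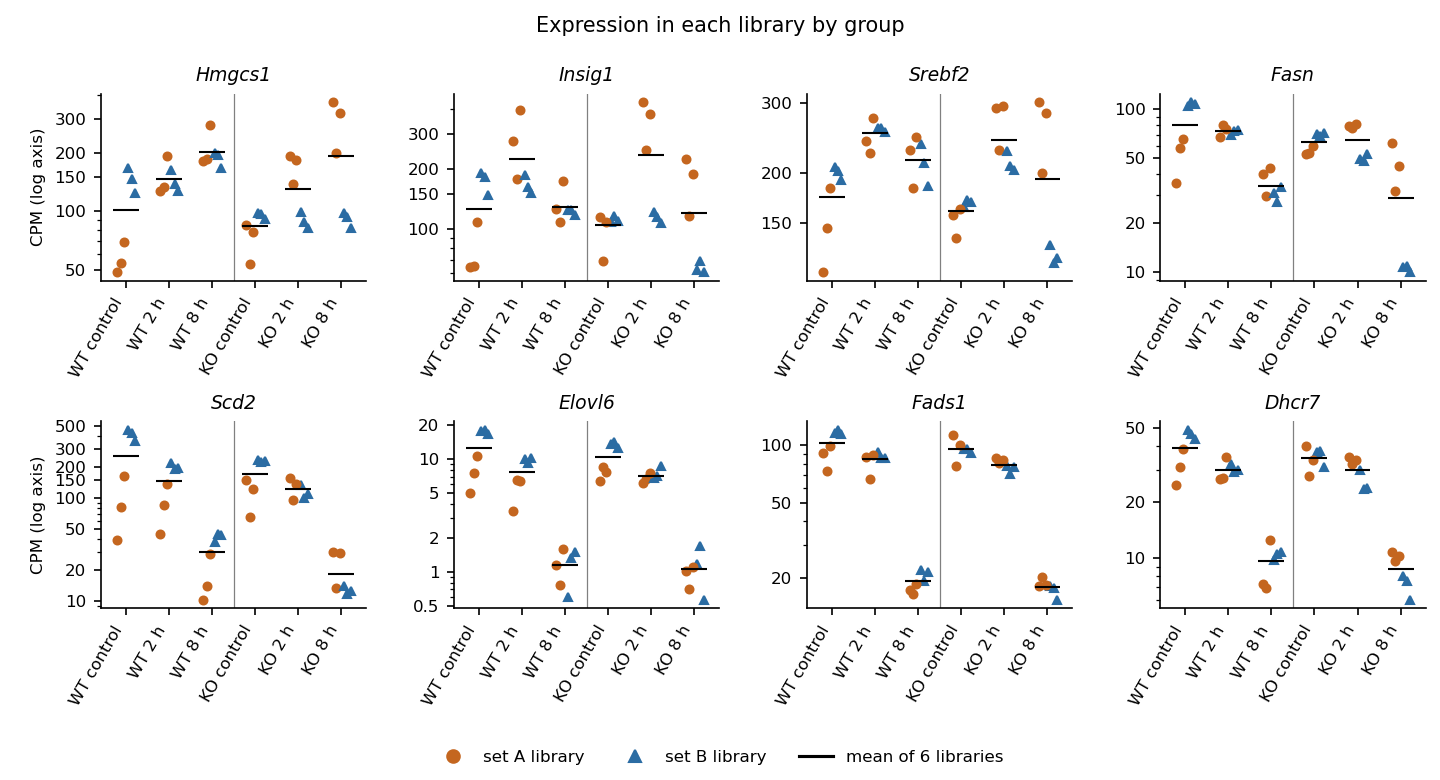
CPM in each library on a log axis for 8 members, by genotype label and treatment. Circles are set A and triangles set B libraries, and bars are the mean of 6. Elovl6 drops from a median of 13.7 to 1.23 CPM at 8 h in the WT-labelled libraries in both sets, whereas Hmgcs1 climbs mainly in the set A libraries.

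The fatty acid synthesis genes did not move together. Fasn (chromosome 11, 120805846 to 120824547), which encodes the synthase that assembles palmitate, ranged from 35.3 through 85.5 to 111 CPM in the WT-labelled controls and from 26.9 through 32.0 to 43.9 CPM at 8 h. The lowest control library lay within the 8 h range. Its log2 fold change at 8 h was -1.24 ± 0.31 (adjusted p = 6.89e-04), and -1.16 ± 0.31 in the KO-labelled libraries. Acly, which supplies cytosolic acetyl-CoA, rose slightly at 8 h, from a median of 187 to 221 CPM (log2 fold change 0.28 ± 0.09, adjusted p = 0.00565). Acaca, which makes malonyl-CoA, was not called, at 0.03 ± 0.20 (adjusted p = 0.896).

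Of the 7 mevalonate genes, 2 rose at 8 h and none of the 7 was called lower in either genotype label. Among all genes 34.2% rose and 37.0% fell in the WT-labelled libraries, and 34.9% and 37.2% in the KO-labelled libraries. Hmgcs1 (chromosome 13, 119690379 to 119708260) encodes the synthase that makes HMG-CoA. It ranged from 48.4 through 97.4 to 168 CPM in the WT-labelled controls, from 127 through 135 to 193 CPM at 2 h and from 167 through 192 to 279 CPM at 8 h. The 8 h and control ranges met only at their edges, 167 and 168 CPM. The log2 fold change was 0.99 ± 0.32 (adjusted p = 0.00666) and 1.21 ± 0.32, or 2.32-fold, in the KO-labelled libraries (adjusted p = 0.00115). Idi1, which isomerises isopentenyl diphosphate, rose by 0.70 ± 0.31 on the log2 scale (adjusted p = 0.0455) and by 1.05 ± 0.31 in the KO-labelled libraries. The WT-labelled call of Idi1 was lost without the 4 libraries with muscle transcripts (adjusted p = 0.15) and in 7 of 12 fits that left out 1 library. Within set B of the KO-labelled libraries Idi1 was at -0.12 and Hmgcs1 at -0.07. The kinase genes Mvk and Pmvk, the decarboxylase gene Mvd, the acetyl-CoA acetyltransferase gene Acat2 and Fdps were not called at 8 h, with log2 fold changes from -0.39 (Acat2) to 0.53 (Mvd) in the WT-labelled libraries.

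The 11 genes from squalene to sterol showed 1 rise and 3 falls at 8 h in each genotype label. Of all genes, 34.2% rose and 37.0% fell in the WT-labelled libraries, and 34.9% and 37.2% in the KO-labelled libraries. Dhcr7 (chromosome 7, 143823145 to 143848410), which encodes the reductase of the last step to cholesterol, ranged from 24.7 through 41.3 to 49.2 CPM in the WT-labelled controls, from 26.7 through 29.6 to 34.9 CPM at 2 h and from 6.94 through 10.1 to 12.5 CPM at 8 h. All 8 h libraries were below all others. The log2 fold change was -2.02 ± 0.16, a fall of 4.04-fold (adjusted p = 3.86e-13), and -1.99 ± 0.16 in the KO-labelled libraries. The squalene epoxidase gene Sqle fell by 0.75 ± 0.31 on the log2 scale (adjusted p = 0.0336), and Ebp, a sterol isomerase gene, fell by 0.21 ± 0.08 (adjusted p = 0.0229). Without the 4 libraries with muscle transcripts neither passed, at an adjusted p of 0.0636 for Sqle and 0.0618 for Ebp, and leaving out 1 library ended the call in 5 and 2 of 12 fits. The KO-labelled value of Sqle in set A was 0.23. The squalene synthase gene Fdft1 rose by 0.82 ± 0.26 (adjusted p = 0.00512), and in set B of the KO-labelled libraries it was at -0.19. Lss, Cyp51, Tm7sf2, Msmo1, Nsdhl, Hsd17b7 and Sc5d, which convert squalene epoxide and lanosterol through the later sterols, were not called, at -0.35 (Tm7sf2) to 0.57 (Hsd17b7).

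Of the 5 control genes, 3 rose at 2 h in the WT-labelled and 4 in the KO-labelled libraries, and at 8 h 2 rose and 1 fell in each. Among all genes 20.3% (WT-labelled) and 18.9% (KO-labelled) rose at 2 h. At 8 h 34.2% of all genes rose and 37.0% fell in the WT-labelled libraries, and 34.9% and 37.2% in the KO-labelled libraries. Scap went from 30.4 through 37.4 to 39.4 CPM in the WT-labelled controls to 47.2 through 55.0 to 73.0 CPM at 2 h, with no overlap, and stood at a median of 46.4 CPM at 8 h. Its log2 fold change was 0.68 ± 0.14 at 2 h (adjusted p = 1.25e-04) and 0.32 ± 0.14 at 8 h (adjusted p = 0.0399), a call lost in 6 of 12 fits that left out 1 library. Insig2 rose from 21.6 through 24.0 to 25.3 CPM to 31.3 through 34.6 to 44.6 CPM at 2 h, again with no overlap, a log2 fold change of 0.61 ± 0.10 (adjusted p = 8.03e-06). Srebf2 rose by 0.53 ± 0.18 on the log2 scale at 2 h (adjusted p = 0.0147, and 0.0589 without the 4 libraries with muscle transcripts).

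Insig1 (chromosome 5, 28071363 to 28078662), itself a target of SREBP2, ranged from 64.2 through 128 to 191 CPM in the WT-labelled controls and at 2 h from 151 CPM with a median of 182 CPM. Its log2 fold change of 0.84 ± 0.35 was not called (adjusted p = 0.0587), while in the KO-labelled libraries it rose by 1.16 ± 0.35 (adjusted p = 0.00929). The difference between the genotype labels in this response was 0.33 and was not called. Stard4, which carries cholesterol between membranes, fell at 8 h from a median of 67.4 to 28.3 CPM in the WT-labelled libraries, by 1.26 ± 0.26 on the log2 scale (adjusted p = 6.02e-05), and by 1.57 ± 0.26 in the KO-labelled libraries.

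These directions depend on the scaling of the libraries. With library totals alone in place of TMM factors, the median of all genes at 8 h was -0.83 in the WT-labelled and -0.88 in the KO-labelled libraries. Then 0 members were called higher and 22 and 21 lower. The share of all genes called lower under that scaling is not given here, so these counts cannot be set against it. The share of all calls that were higher went from 48.0% to 19.9% and from 48.5% to 19.5%. At 2 h that share went from 53.4% to 20.7% in the WT-labelled and from 53.5% to 20.3% in the KO-labelled libraries. Relative to the median of all genes under that scaling, Hmgcs1 stood at 1.04, Fdft1 at 0.88, Idi1 at 0.75 and Elovl6 at -3.39 in the WT-labelled libraries. The rises at 8 h are rises relative to the other genes. Under library totals the log2 fold changes of Idi1, Scap, Insig2 and Acly fell below 0 in the WT-labelled libraries. That scale is relative as well, and gives no absolute amounts. Relative to the median of all genes on it, Idi1 stood at 0.75, Scap at 0.37, Insig2 at 0.37 and Acly at 0.34.

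The response of most sterol genes differed between the library sets. In set A, 10 members rose and 0 fell at 2 h in the WT-labelled libraries (21.2% and 17.2% of all genes), and 18 rose and 6 fell at 8 h (32.9% and 34.6%). In set B, 3 rose and 19 fell at 2 h (26.5% and 24.3%), and 5 rose and 17 fell at 8 h (37.4% and 38.7%). The KO-labelled libraries of set A gave 7 and 0 at 2 h (18.5% and 14.5%) and 18 and 5 at 8 h (33.3% and 34.3%), and those of set B gave 3 and 18 at 2 h (25.0% and 22.9%) and 3 and 23 at 8 h (37.5% and 39.7%). The 10 rises of set A became 6 without the WT-labelled control numbered 1 or 2 or the 2 h library numbered 6, and the 5 rises of set B became 3 without the 8 h library numbered 4 and 8 without that numbered 5. The median log2 fold change over members at 8 h was 0.44 in set A and -0.32 in set B of the WT-labelled libraries, and 0.58 and -0.78 in the KO-labelled libraries.

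Hmgcs1 shows this in single libraries. In set A it stood at 48.4, 54.0 and 69.2 CPM in the WT-labelled controls and at 182, 187 and 279 CPM at 8 h, a log2 fold change of 1.92 (adjusted p = 1.78e-06). In set B it stood at 168, 147 and 125 CPM and at 201, 197 and 167 CPM, a log2 fold change of 0.38 (adjusted p = 7.12e-04). Under the KO label, set A went from 84.6, 53.2 and 78.3 CPM to a mean of 298 ± 86.6 CPM (SD, n = 3), with 201 CPM in its lowest library, and set B from 97.9, 97.2 and 91.3 to 97.6, 93.7 and 81.7 CPM. The set A controls were below the set B controls under both labels. At 8 h the sets overlapped in the WT-labelled libraries, and set A was above set B in the KO-labelled libraries. Insig1 at 2 h rose from 64.2, 65.5 and 108 CPM to a mean of 285 ± 110 CPM (SD, n = 3), with 179 CPM in its lowest library, in set A of the WT-labelled libraries (log2 fold change 1.85, adjusted p = 1.40e-04), whereas set B held 191, 182 and 148 CPM before and 186, 163 and 151 CPM after (-0.05, adjusted p = 0.583).

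The difference between the sets was tested in a model with a mean for each group and set. Since the sets were drawn from these counts after seeing the data, its p-values describe these libraries. In the WT-labelled libraries the response of set B was lower than that of set A for 9 members at 2 h and 17 at 8 h, against 4.50% and 10.4% of all genes. Under the KO label it was lower for 7 and 23 members, against 3.56% and 13.1%. No member was called higher. Examples at 8 h in the WT-labelled libraries are Fdps at -1.95 ± 0.38 (log2 difference, adjusted p = 4.70e-04), Hmgcs1 at -1.55 ± 0.28 (adjusted p = 1.48e-04), the demethylase gene Cyp51 at -1.48 ± 0.31 (adjusted p = 8.92e-04) and Acaca at -1.34 ± 0.22 (adjusted p = 4.78e-05).

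5 members fell at 8 h in both sets and both genotype labels: Elovl6, Scd2, Fads1, Dhcr7 and Stard4. Taken 1 fit at a time, 34.6% (WT-labelled) and 34.3% (KO-labelled) of all genes fell in set A. In set B these shares were 38.7% and 39.7%. The share of all genes that fell in every one of these fits was not computed, so the 5 members cannot be set against it. Fads1 went from 91.2, 73.4 and 98.9 to 17.3, 16.6 and 18.7 CPM in set A and from 116, 121 and 115 to 22.2, 19.4 and 21.5 CPM in set B of the WT-labelled libraries, a difference between the sets of -0.15 ± 0.17 (adjusted p = 0.594). On the log2 scale Dhcr7 had changes of -1.82 (set A) and -2.15 (set B), a difference of -0.34 ± 0.24 (adjusted p = 0.395). Fads2 and Fasn passed the test in set B, at -1.60 and -1.81, and missed it in set A, at -0.91 (adjusted p = 0.0501) and -0.49 (adjusted p = 0.0568). For Fasn the difference between the sets was called, at -1.35 ± 0.24 (adjusted p = 1.26e-04), and for Fads2 it was not, at -0.70 ± 0.41 (adjusted p = 0.271).

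The sets also differed in neutrophil and myeloid precursor markers under LPS. Their sum was 33.8 to 55.4 CPM in set A and 173 to 195 CPM in set B at 2 h, and 18.3 to 35.3 and 105 to 114 CPM at 8 h, in the WT-labelled libraries. In the KO-labelled libraries it was 46.1 to 64.4 and 118 to 128 CPM at 2 h, and 26.0 to 41.2 and 63.3 to 67.3 CPM at 8 h. Dendritic cell markers, 6 genes, also differed: in the WT-labelled libraries they summed to 1.25 to 1.81 CPM in set A and 2.22 to 2.90 CPM in set B of the controls, to 6.05 to 10.0 and 15.2 to 18.2 CPM at 2 h, and to 10.5 to 16.2 and 37.1 to 40.6 CPM at 8 h. Under the KO label the dendritic sums were 0.682 to 1.31 and 2.68 to 3.54 CPM in controls, 6.58 to 11.5 and 15.2 to 15.9 CPM at 2 h, and 9.72 to 13.1 and 52.7 to 55.1 CPM at 8 h. The sums of 6 stromal markers overlapped between the sets in each WT-labelled group, and in the KO-labelled libraries were 17.2 to 26.7 CPM in set A and 12.2 to 16.5 CPM in set B of the controls, and 37.0 to 46.5 and 27.3 to 27.9 CPM at 8 h. The libraries with Xist counts or BMDM-labelled genotypes are all in set A. The part of these features in the members' responses was not tested.

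No member was called between KO-labelled and WT-labelled libraries when all were compared. edgeR called 0 of 31 members in controls, at 2 h and at 8 h, where 0.147%, 0.0232% and 0.100% of all genes were called in either direction, 0 members had an unadjusted p below 0.05, and DESeq2 also called 0. The median log2 difference over members was -0.17, -0.09 and -0.13. The response to LPS did not pass the test for a difference between the labels either: edgeR and DESeq2 called 0 members for the interaction at 2 h and at 8 h, with 0 at an unadjusted p below 0.05, and edgeR called 0% of all genes at both times.

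Within set B, however, most members were lower in the KO-labelled libraries. In set B, 26 members were called lower in controls, 22 at 2 h and 26 at 8 h, against 3.64%, 3.92% and 13.3% of all genes, and 0 were called higher. In set A, edgeR and DESeq2 called 0 members at each time, against 0.0548%, 0.0704% and 0.0469% of all genes in either direction by edgeR. There 0, 1 and 2 members were higher and 0 lower at an unadjusted p below 0.05. Set A libraries could lie further apart than set B libraries. Under the KO label at 8 h, Fasn held 61.9, 31.6 and 45.2 CPM in set A and 10.8, 11.0 and 10.0 CPM in set B. Counts of calls are thus not on an equal footing in the sets. Nothing states that the 3 libraries of a set and label had separate sources. The median log2 difference over members in set B was -0.40 in controls, -0.43 at 2 h and -0.93 at 8 h, and in set A it was 0.19, 0.19 and 0.28. All 3 KO-labelled libraries lay below all 3 WT-labelled libraries of set B for 27, 25 and 25 members. They did so for 11.6%, 15.2% and 17.4% of all genes tested. In set A they lay below for 0 members at each time, against 3.11%, 3.41% and 3.68% of all genes. They lay above in set A for 2 members at 2 h, against 3.92% of all genes, and for 0 members in controls and at 8 h.

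**Figure D4:**
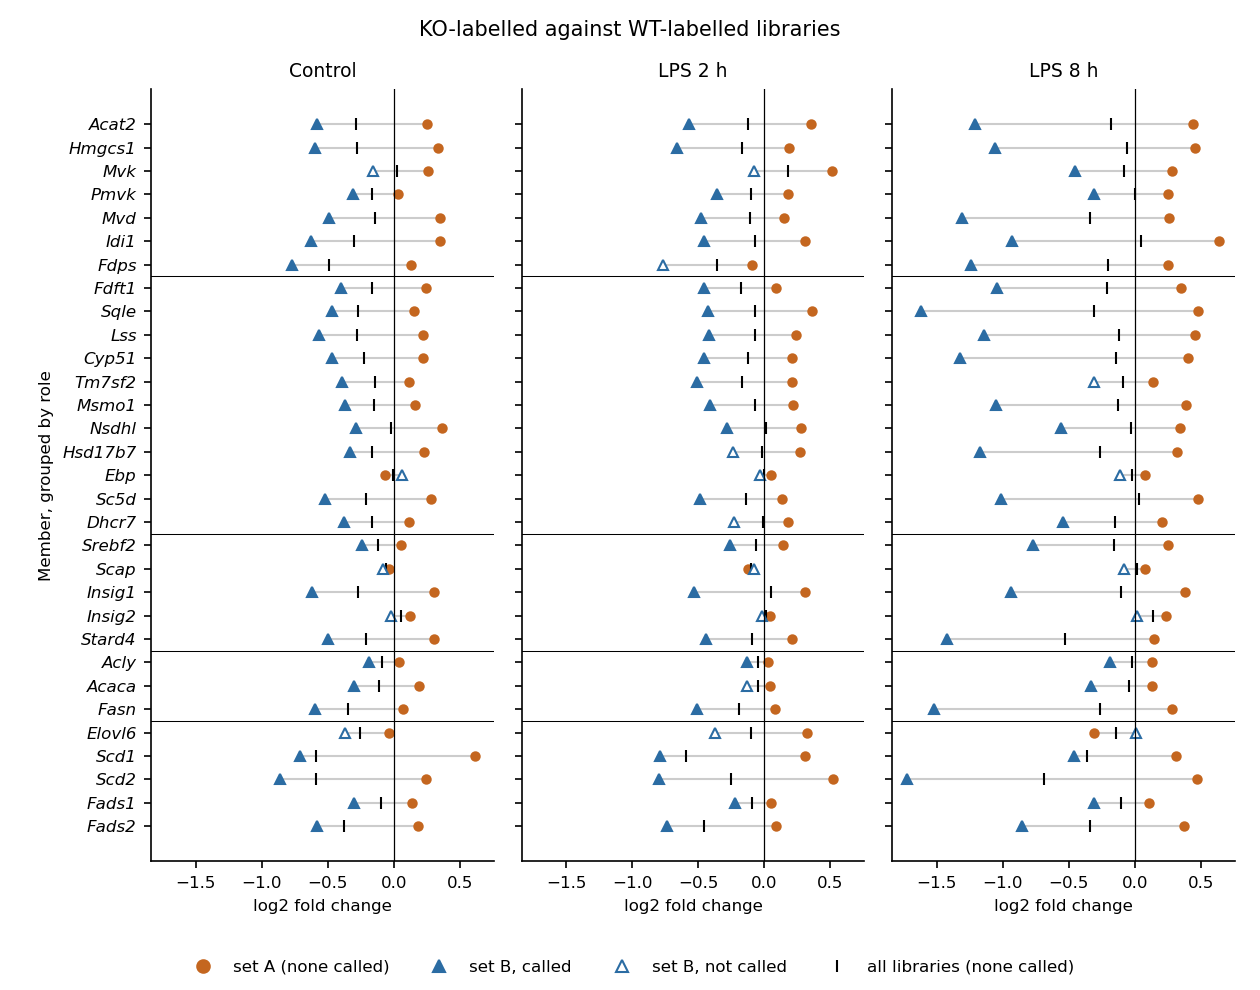
Log2 fold change of each member between KO-labelled and WT-labelled libraries in controls, at 2 h and at 8 h of LPS, within set A (circles) and set B (triangles, filled where called); ticks are all libraries. Most set B values lie left of 0, with a median of -0.93 at 8 h, and most set A values right of 0, with a median of 0.28.

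Fasn in set B was at 105, 111 and 108 CPM in the WT-labelled controls and 70.8, 69.1 and 72.2 CPM in the KO-labelled controls. At 8 h these became 30.8, 26.9 and 33.2 CPM and 10.8, 11.0 and 10.0 CPM, a log2 difference of -1.52 (adjusted p = 1.05e-12). In set A at 8 h the WT-labelled libraries held 40.2, 29.6 and 43.9 CPM and the KO-labelled libraries 61.9, 31.6 and 45.2 CPM, which overlap. Sqle at 8 h was at 82.2, 86.5 and 73.4 against 27.1, 27.6 and 24.8 CPM in set B, a log2 difference of -1.62 (adjusted p = 2.79e-13). In set A it was at 64.9, 49.4 and 84.0 against 120, 62.9 and 94.0 CPM, which also overlap. Scd2, at -1.72, had a larger log2 difference in set B at 8 h than Sqle or Fasn. After Scd2, Sqle and Fasn came Stard4 at -1.42, Cyp51 at -1.32 and Mvd at -1.31.

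Members that were not called in set B at 8 h were Ebp, Scap, Insig2, Tm7sf2 and Elovl6. Elovl6 stood at 0.590, 1.32 and 1.50 CPM in the WT-labelled and 1.18, 1.70 and 0.561 CPM in the KO-labelled libraries. The difference between the sets in this comparison was itself called for 17 members at 8 h, all lower in set B, against 2.20% of all genes, and for 0 members in controls and at 2 h, against 0.349% and 0.334%. It was -2.09 ± 0.27 for Sqle (adjusted p = 4.21e-06), -1.79 ± 0.26 for Fasn (adjusted p = 2.93e-05) and -1.71 ± 0.31 for Cyp51 (adjusted p = 7.59e-04). Within set B the LPS response at 8 h also differed between the labels, with 14 members called lower in the KO-labelled libraries against 8.18% of all genes. Sqle and Fasn had interactions of -1.15 and -0.92 (adjusted p = 1.91e-08 and 4.49e-07). In set A edgeR and DESeq2 called 0 members for this interaction, with 0 at an unadjusted p below 0.05 and 0% of all genes called by edgeR. The neutrophil and myeloid precursor markers of set B moved with the label as well. They stood at 105 to 109 (WT-labelled) against 58.9 to 68.7 CPM (KO-labelled) in controls and 105 to 114 against 63.3 to 67.3 CPM at 8 h. The dendritic markers stood at 2.22 to 2.90 against 2.68 to 3.54 CPM and 37.1 to 40.6 against 52.7 to 55.1 CPM. The stromal markers of set B were at 30.7 to 34.7 CPM in the WT-labelled and 12.2 to 16.5 CPM in the KO-labelled controls, at 34.7 to 41.4 and 16.2 to 19.4 CPM at 2 h, and at 49.2 to 192 and 27.3 to 27.9 CPM at 8 h. The part of these markers in the difference was not tested.

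Other genes of the pathway were taken from 4 lists of 65 genes, of which 58 were tested. At 8 h in the WT-labelled libraries 25 rose and 22 fell, against 34.2% and 37.0% of all genes, and at 2 h 10 rose and 2 fell, against 20.3% and 17.7%. Under the KO label 24 rose and 20 fell at 8 h, against 34.9% and 37.2%, and 11 rose and 5 fell at 2 h, against 18.9% and 16.4%. Of 10 tested genes of SREBP regulation, 6 rose and 3 fell at 8 h. Nr1h3, which encodes the oxysterol receptor LXR alpha, rose by 0.84 ± 0.14 at 2 h and 2.68 ± 0.14 at 8 h on the log2 scale. Rnf139, a ubiquitin ligase gene, rose by 1.72 ± 0.15, while Mbtps1, the protease that makes the first cut in SREBP proteins, fell by 0.55 ± 0.06 at 8 h. Srebf1, which encodes SREBP1, fell by 0.33 ± 0.10.

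Of 13 tested genes of other sterol steps and isoprenoid branches, 5 rose and 6 fell at 8 h in the WT-labelled libraries. Among all genes 34.2% rose and 37.0% fell there, the background for each list of this paragraph. Pggt1b, a subunit of the enzyme that attaches geranylgeranyl groups to proteins, rose by 1.29 ± 0.16 and Fntb, a subunit of farnesyltransferase, fell by 1.09 ± 0.15 on the log2 scale. Of 21 tested genes of acyl-CoA supply, elongation and desaturation, 9 rose and 7 fell. Acsl1, which activates long-chain fatty acids, rose by 1.86 ± 0.14 at 2 h and 4.74 ± 0.16 at 8 h, and Acss2, which makes acetyl-CoA from acetate, rose by 1.33 ± 0.26 at 8 h. The elongase gene Elovl7 fell by 3.03 ± 0.30 and Mid1ip1, an activator of acetyl-CoA carboxylase, fell by 2.57 ± 0.14. Of 14 genes of sterol uptake, transport and storage, 5 rose and 6 fell. The sterol transfer gene Stard3 rose by 2.43 ± 0.09, and the phosphatidate phosphatase gene Lpin1 fell by 3.95 ± 0.47.

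Some members' counts may include or lose reads of other genes. Fdft1 shares 774 bases of exon, on the opposite strand, with the cathepsin gene Ctsb, which had 8778191 counts in all libraries against 20843 for Fdft1. Whether counting used the strand is not given in the sources used here. At 8 h in the WT-labelled libraries Ctsb rose by 0.28 and Fdft1 by 0.82 on the log2 scale, and the part of Ctsb reads in the counts of Fdft1 was not tested. Fdps had only 1685 counts in all libraries and shares 1124 bases, 26.7% of its exons, with the annotated gene Gm43738. Scd2 and Scd1 are 95.5% identical over 623 aligned bases, and Acat2 shares 97.7% identity with Acat3 over 1477 bases. Acat2 also shares 98.7% identity with Tcp1 over 445 bases. Tcp1 had 75353 counts in all libraries, against 9263 for Acat2 and 108 for Acat3.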

How the data were processed

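RNA from 36 libraries was analysed, 6 in each of 6 groups. The deposited values are raw read counts per Ensembl gene. The submitters' processing notes name HTSeq, a read counter, and mm10 as the genome. The aligner, the annotation, and the counter's version and strandedness are each not given in the sources used here. Of 54232 identifiers, 54165 matched GENCODE M21, which gave symbols, positions and exon lengths. The files held 0 rows without a gene.

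Genes were kept by filterByExpr over the 6 groups, scaled by TMM (factors 0.691 to 1.34) and fitted with edgeR 4.0.16 quasi-likelihood tests in R 4.3.3, 1 mean per group, with Benjamini-Hochberg adjustment over 12957 genes. SE is the log2 fold change divided by the square root of F. CPM use TMM-scaled library sizes. Fits within a set tested 12785 genes (set A) and 12975 (set B), and the model of groups and sets 13475. Scripts were tested on simulated data. DESeq2 1.42.0, other scalings and filters, and leaving out libraries were the alternatives. All libraries of a group differed by more than sampling noise (lowest chi-square per gene 2.15).

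Promoters come from RefSeq, GRCm38.p6. Sequence likeness was searched with blastn 2.17.0 at 95% identity over 300 bases or more. The members and lists were chosen with earlier results of these data known. All members were named, with library values for those with the largest changes, and, of the related lists, at most the 2 largest called changes in each direction. Some genes that this rule names are not reported here.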

Additional observations from a re-analysis of the deposited data

Results flagged for a closer look

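A library was marked where its gap to the nearest of the other 5, divided by the range of the group exceeded Dixon's 95% critical value for 6 samples, on the scale of log2 (CPM + 0.5). This happened in 14 of 186 groups, and chance gives about 1 in 20. The WT-labelled 8 h library numbered 6 (set A, with muscle transcripts and a BMDM-labelled genotype) was the highest of its group for 6 members, with ratios of 0.636 for Hmgcs1, 0.685 for Pmvk, 0.645 for Cyp51, 0.629 for Msmo1, 0.724 for Sc5d and 0.693 for Insig1. The KO-labelled control library numbered 2 (set A) was the lowest for Hmgcs1 at 0.632, Mvk at 0.661 and Insig1 at 0.880. The WT-labelled 2 h library numbered 1, which carries Xist counts, was the lowest for Tm7sf2 at 0.733 and for Acly at 0.773. The KO-labelled 2 h libraries gave Hsd17b7 lowest in number 2 at 0.640 and Acly highest in number 1 at 0.757. Fads1 was lowest in the WT-labelled 2 h library numbered 2, at 0.761. The part of muscle transcripts in these values was not tested.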

How the results depend on the processing

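The labels carry no replicate numbers. No paired analysis was run, and the replicate numbers used here follow accession order. Xist counts of 4924, 6526 and 6093 fell in the WT-labelled control, 2 h and 8 h libraries that share a number. Each library set also holds the same numbers in every group. Whether every number marks a shared source is not stated. A fit that pairs libraries by number within a genotype label was possible, and its effect on the LPS comparisons was not tested. Of the member values under the alternatives, 8117 kept their call and direction, 303 passed the threshold that they had missed, 153 lost it and 14 reversed. With library totals alone, at 8 h the WT-labelled values of Insig2 (-0.46), Acly (-0.49), Scap (-0.46) and Idi1 (-0.08) reversed, as did the KO-labelled values of Insig2 (-0.42), Acly (-0.47), Fdft1 (-0.07) and Scap (-0.43) and, between 2 h and 8 h, of Acly (-0.32) and Pmvk (-0.12). At 8 h in the KO-labelled libraries Sqle reversed in set A alone (0.23), and Fdft1 (-0.19), Idi1 (-0.12) and Hmgcs1 (-0.07) in set B alone.

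Counts of members moved as follows, and shares of all genes called under library totals are not given here. In the WT-labelled libraries at 2 h, the count higher went from 3 to 10 in set A alone. The count lower went from 3 to 10 with library totals, to 19 in set B alone, and to 0 without a count filter, in set A alone, without the BMDM-labelled libraries, or with the compared groups alone. At 8 h the count higher went from 6 to 0 with library totals and 18 in set A alone, and the count lower from 9 to 22 with library totals and 17 in set B alone. From 2 h to 8 h, the count higher went from 1 to 3 with RLE factors, DESeq2 or set A alone, to 9 in set B alone, to 5 with the compared groups alone, and to 0 with library totals, no filter, or without the muscle or BMDM-labelled libraries.

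In the KO-labelled libraries at 2 h, the count higher went from 4 to 7 in set A alone. The count lower went from 1 to 6 with library totals, 2 with the set as a term or the compared groups alone, 18 in set B alone, and 0 without a filter, in set A alone or without the BMDM-labelled libraries. At 8 h the count higher went from 6 to 0 with library totals, 18 in set A alone and 3 in set B alone, and the count lower from 9 to 21, 5 and 23. From 2 h to 8 h the count higher went from 2 to 8 in set A alone, 1 without the BMDM-labelled libraries, and 0 with library totals, no filter or set B alone, and the count lower from 10 to 19 with library totals and 20 in set B alone. Between the labels, set B alone gave 26, 22 and 26 members lower where all libraries gave 0, and 14 for the interaction at 8 h.

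Within the sets, alternatives were added after seeing the data, and shares of all genes called under them are not given here. With library totals, set A gave 6 higher and 7 lower at 2 h and 4 and 15 at 8 h in the WT-labelled libraries, 2 lower at 2 h and 5 higher and 14 lower at 8 h in the KO-labelled libraries. Set B then gave 1 higher at 2 h and 0 higher and 31 lower at 8 h in the WT-labelled libraries, and 1 and 0 higher at 2 h and 8 h in the KO-labelled libraries. Without a filter, set A gave 16 higher at 2 h under each label and 1 higher between the labels at 2 h and at 8 h, where the filtered fit gave 0, and set B gave 3 and 1 higher at 8 h. Without the muscle libraries the WT-labelled count higher was 6 at 2 h in set A and 8 at 8 h in set B.

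Leaving out each library in turn gave, for all libraries, 3 to 4 higher and 0 to 4 lower (WT-labelled, 2 h), 4 to 7 and 7 to 10 (8 h), 0 to 2 and 9 to 11 (8 h against 2 h), 4 to 4 and 0 to 1 (KO-labelled, 2 h), 5 to 8 and 7 to 10 (8 h), 0 to 5 and 9 to 11 (8 h against 2 h), and 0 between labels. The 3 falls at 2 h became 1 without the WT-labelled 2 h library 1 and 0 without 2 h library 2 or control library 3, 4 or 5. The KO-labelled fall at 2 h became 0 without control library 1 or 6 or 2 h library 3, 4 or 5. From 2 h to 8 h the count higher became 0 without WT-labelled 2 h library 1, 2, 4 or 5 or 8 h library 3, 4, 5 or 6 and 2 without 2 h library 3. Its KO-labelled counterpart became 0 without 8 h library 1 or 6, 1 without 8 h library 2 or 2 h library 2, 3, 4, 5 or 6, 4 without 8 h library 3 and 5 without 8 h library 5. In set A the ranges were 6 to 15 and 0 to 1 (WT-labelled, 2 h), 13 to 18 and 5 to 8 (8 h), 5 to 9 and 0 (KO-labelled, 2 h), and 15 to 19 and 5 to 7 (8 h). In set A the count of 10 became 6 without WT-labelled control library 1 or 2 or 2 h library 6. In set B the counts lower were 14 to 20, 16 to 18, 12 to 20 and 23 to 24, and the counts higher at 8 h were 3 (without WT-labelled 8 h library 4) to 8 (without library 5) and 2 to 3. Set B between labels gave 19 to 25, 17 to 22 and 22 to 25, and 13 to 15 for the interaction. Idi1, Scap, Sqle and Ebp lost their WT-labelled calls at 8 h in 7, 6, 5 and 2 of 12 such fits.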
